A study of Rattus norvegicus with 60 samples.

Results

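Deltamethrin at 1 mg/kg and permethrin at 10 mg/kg are the doses of these pyrethroid insecticides that the study took as the no-observed-adverse-effect level for motor behaviour in the rat. The comparison of the frontal cortex between the groups given these doses used 16 of the 60 arrays, 8 rats for each compound, and all 31042 probe sets, and the arrays were chosen by their titles alone. All rats were adult male Long-Evans rats of postnatal day 62 to 64 that received a single dose by oral gavage in corn oil (1 mL/kg), and the cortex was taken 6 h later. The other arrays came from 12 rats given corn oil alone and from rats given 0.3 or 3 mg/kg deltamethrin or 1 or 100 mg/kg permethrin (8 rats each). The doses are matched by behavioural level and not by mass, since the permethrin dose was 10-fold higher in mg/kg. Each rat gave 1 array, and the values are log2 RMA values, which summarize the probes of a probe set after background correction and quantile normalization.

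Pyrethroids bind voltage-gated sodium channels of nerve cells and slow their closing, so that sodium enters for longer and neurons fire repeatedly or depolarize. Permethrin lacks the α-cyano group that deltamethrin carries, and compounds with this group hold the channel open for longer and give a different syndrome of poisoning at high doses. Neuronal firing and calcium entry switch on immediate early genes such as Fos and Egr1 and then later genes such as Bdnf, while stress hormones act on glucocorticoid-responsive genes such as Fkbp5. The comparison asks whether cortical transcripts differ between the compounds at doses that are equal by their behavioural effect.

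No transcript separated the compounds after correction for the number of tests. Of 31042 probe sets, 0 had an adjusted p under 0.05 between the compounds (limma, Benjamini-Hochberg), and the lowest adjusted p was 1.00. At an unadjusted p under 0.05 there were 318 probe sets (1.02%), of which 123 (0.396%) were higher and 195 (0.628%) were lower after deltamethrin. This share is smaller than the fraction of 0.05 that such a threshold gives on average when no probe set differs. The 318 are therefore no surplus over chance in this fit, and the reason for the low share was not tested. With array quality weights the share was 6.71%, with 0 adjusted calls. The lack of calls came with bounds on how far the compounds could differ. The 95% confidence interval of the difference lay within ±1 on the log2 scale, that is within a 2-fold difference, for 30903 probe sets (99.6%), and within ±0.5 for 28151 (90.7%). The median absolute difference was 0.042 with a median SE of 0.090 (n = 8 per group). These shares include dim probe sets. In a fit of the 15521 probe sets at or above the median level the median SE was 0.120, so bounds on brighter transcripts were mostly wider. No difference reached 1, and 18 probe sets (0.0580%) differed by at least 0.5, of which 4 were higher and 14 lower after deltamethrin. These intervals are per probe set and not corrected for the number of probe sets, and for the other 139 (0.448%) a 2-fold difference lay inside the interval. Each array came from the RNA of 1 animal, so the error is that between rats. It includes differences between the array groups described below, for which the main fit has no term. With the array group as a block the median SE was 0.080. Fewer cells of a type and less RNA per cell cannot be told apart in tissue of this kind.

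**Figure D1:**
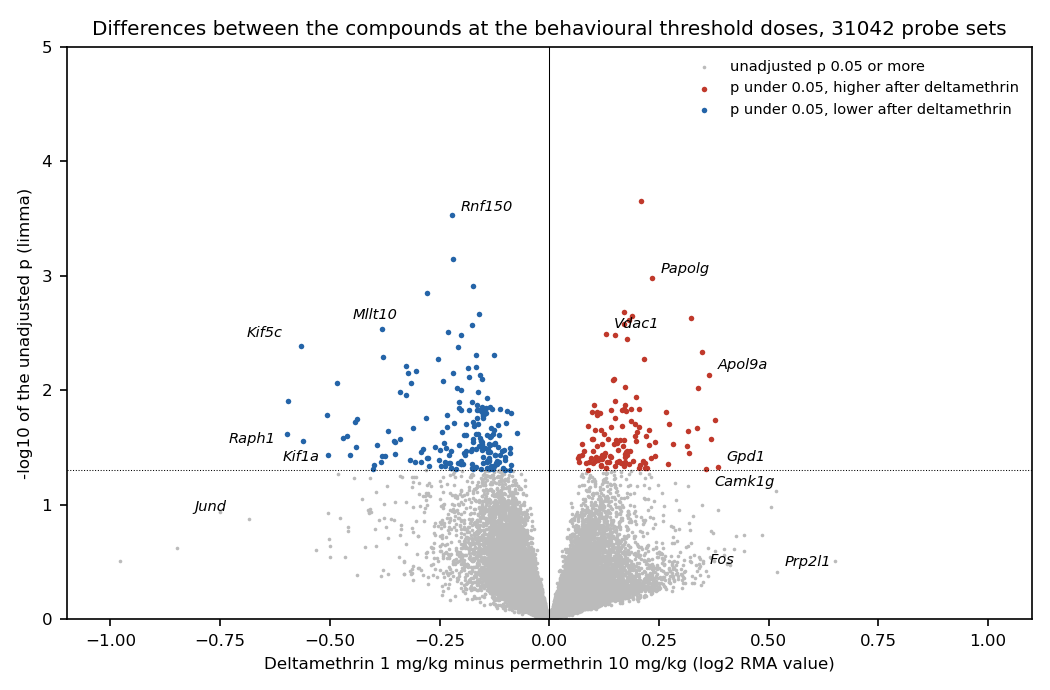
Difference between deltamethrin 1 mg/kg and permethrin 10 mg/kg (log2 RMA value, x axis) against -log10 of the unadjusted p from limma (y axis) for 31042 probe sets, 8 rats per group. The 318 probe sets above the dotted line at p = 0.05 lie mostly within ±0.5, and points far from 0, such as Jund and Prp2l1, lie below the line.

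The arrays themselves did not separate by compound. Across all 60 arrays the first principal component held 58.0% of the variance. Clustering on this and the second component split the arrays into a group A of replicates 1 to 3 of each dose and vehicle rats 1 to 6, and a group B of the remaining replicates, which the labels do not name. On the first component alone A (-33.4 to 90.1) and B (-33.0 to 17.9) overlapped. Each compound had 3 rats in A and 5 in B. First principal component scores ran from -31.7 to 64.2 (median -9.63) after deltamethrin and from -27.8 to 82.1 (median -12.1) after permethrin, and the exact permutation test of the difference in means gave p = 0.80 (two-sided, n = 8 per group). Array medians ran from 7.09 to 7.17 on the log2 scale, and their means were 7.13 in both groups. Within group A 0 probe sets had an adjusted p under 0.05 and 390 (1.26%) an unadjusted one, and within group B these counts were 0 and 592 (1.91%) (limma). The difference between A and B in the size of the compound difference had 0 adjusted calls and 400 unadjusted ones (1.29%).

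Sodium channel transcripts, which encode the target of both compounds, were described for 11 genes of the channel and its partners. None had an unadjusted p under 0.05, and the median difference of the 11 was 0.05 beside -0.01 over all probe sets. Over all genes, each by its brightest probe set, only 0.760% had such a p, so a list of 11 would mostly hold none. Scn2a, the main pore-forming subunit of axons early in life and still abundant in adult cortex, lay between 9.28 and 11.12 after deltamethrin (median 10.81) and between 9.11 and 11.12 after permethrin (median 10.77). The ranges of the groups were nearly the same, and the difference was 0.04 (95% interval -0.56 to 0.64). Scn8a, the subunit that carries most current at mature nodes and axon initial segments, ranged from 7.02 to 7.54 after deltamethrin and from 6.95 to 7.82 after permethrin, with a difference of -0.08 (-0.33 to 0.17). Scn1a, the subunit on which fast-spiking interneurons depend, differed by 0.10 (-0.50 to 0.69), and Scn3a by 0.06 (-0.45 to 0.56). Among all 11 genes the lowest difference was -0.09 for Fgf13 and the highest 0.11 for Fgf12, both of which encode intracellular partners of the channel. Scn9a, typical of peripheral neurons, had the lowest p of the list (0.14) at a mean level of 4.51 against 4.43. All 11 intervals lay within ±1 and 7 within ±0.5.

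For Scn1a the 3 group A rats averaged 9.24 after deltamethrin and 8.75 after permethrin, while the 5 group B rats averaged 9.95 and 10.09. The 4 lowest of the 16 rats for this gene were all in group A, and the ranges of the array groups overlapped after deltamethrin (8.47 to 10.01 in A, 9.23 to 10.35 in B). The compound difference was 0.49 ± 0.41 (SE) in A and -0.14 ± 0.32 in B (unadjusted p of their difference 0.23, limma). For Scn8a the array groups averaged 7.32 and 7.34 after deltamethrin and 7.09 and 7.61 after permethrin.

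Other ion channels, pumps and receptors gave the same kind of result. No gene of the lists of voltage-gated calcium channels (17 measured), potassium channels (25), chloride channels and cotransporters (11), sodium pump and calcium clearance (14), GABA receptors (11), monoamine and acetylcholine receptors (24) or glutamate receptors (20) had an unadjusted p under 0.05. The share over all genes was 0.760%, at which lists of these sizes would mostly hold none. Their median differences lay between -0.06 for glutamate receptors and 0.04 for chloride channels. In the glutamate receptor list 13 of 20 genes were below 0, with Grin2a, an NMDA receptor subunit, lowest at -0.50. Gria1, an AMPA receptor subunit, had the lowest p of that list, with a difference of -0.25 (-0.55 to 0.05). Cacng8, which encodes an accessory protein of AMPA receptors named as a calcium channel subunit, had a difference of -0.30 (-0.63 to 0.04). Cacna1c, the L-type channel subunit Cav1.2, is represented by a pair of probe sets. Its dimmer one was among the lowest p values of all genes and ran from 6.33 to 6.60 after deltamethrin (median 6.49) and from 6.21 to 6.47 after permethrin (median 6.30). All 8 deltamethrin rats were above the permethrin mean and all 8 permethrin rats below the deltamethrin mean, with a difference of 0.15 ± 0.05 (SE, unadjusted p = 0.0080, adjusted p = 1.00). The brighter probe set of Cacna1c differed by 0.07 ± 0.06.

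Array values of 9 genes that were also followed by qRT-PCR form a panel for both compounds. Gpd1, glycerol-3-phosphate dehydrogenase, which links glycolysis to glycerolipid synthesis and is raised by glucocorticoids, had the widest gap of this panel. Its brighter probe set ran from 8.73 to 10.04 after deltamethrin (median 9.54), from 8.58 to 9.56 after permethrin (median 8.97) and from 8.37 to 9.95 in vehicle rats (median 8.85). The groups overlapped, and 6 of 8 deltamethrin rats were above the permethrin mean. The difference was 0.42 ± 0.22 (SE), a ratio of 1.34 with a 95% interval of 0.99 to 1.82 (unadjusted p = 0.061). The other Gpd1 probe set gave 0.38 ± 0.19 (unadjusted p = 0.047). In the paper's qRT-PCR on other rats, Gpd1 was near the vehicle level after both compounds at these doses.

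Camk1g encodes a calcium/calmodulin-dependent kinase of neurons. Its brighter probe set ran from 9.12 to 9.75 after deltamethrin (median 9.48) and from 9.05 to 9.57 after permethrin (median 9.23), beside 8.86 to 9.42 in vehicle rats. Here 7 of 8 deltamethrin rats lay above the permethrin mean, and the difference was 0.20 ± 0.11 (SE, unadjusted p = 0.068). Against vehicle the same probe set differed by 0.33 after deltamethrin (unadjusted p = 0.0013) and by 0.13 after permethrin (unadjusted p = 0.18). Both compounds share the vehicle rats, and neither value had an adjusted p under 0.05. The dimmer probe set of Camk1g differed by 0.36 ± 0.18 between the compounds (unadjusted p = 0.049). The paper's qRT-PCR on other rats went the other way, with a larger mean rise over vehicle after permethrin than after deltamethrin. The paper reports that Camk1g did not differ there between the compounds at equipotent doses. An effect of one compound that is absent for the other was not shown by the array values, since the direct difference had an adjusted p of 1.00.

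Fkbp5 encodes a co-chaperone of the glucocorticoid receptor. Its brighter probe set lay between 8.52 and 9.05 after deltamethrin (median 8.67) and between 8.35 and 8.73 after permethrin (median 8.58). The group medians were close, and the difference was 0.14 (-0.06 to 0.34). Its other probe set differed by 0.22 (-0.04 to 0.48). Ddc makes dopamine and serotonin from their precursors, and its brighter probe set ran from 7.10 to 7.69 after deltamethrin and from 7.46 to 7.85 after permethrin. All 8 permethrin rats were above the deltamethrin mean, and the difference was -0.18 ± 0.09 (SE, unadjusted p = 0.044). A second Ddc probe set differed by -0.03. By the paper's qRT-PCR on other rats at these doses, Fkbp5 was near the vehicle level after both compounds. Mean Ddc there was slightly below vehicle after both.

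Immediate early genes varied more between rats than between compounds. Fos, a subunit of the AP-1 transcription factor, was measured by a probe set that ran from 5.88 to 7.86 after deltamethrin (median 6.72), from 5.73 to 7.20 after permethrin (median 6.32) and from 5.72 to 8.50 in vehicle rats (median 7.07). The ranges overlapped almost wholly, and the difference of 0.34 had an interval of -0.36 to 1.04, so a 2-fold difference in Fos was not excluded at this number of rats. Its sign was opposite in the array groups, -0.27 in A and 0.71 in B. The second Fos probe set, at about 7.22 in both groups, showed no such spread (difference -0.0019). Egr1 differed by 0.10 (-0.22 to 0.42). The paper's qRT-PCR on other rats gave higher means of Fos and Egr1 after permethrin than after deltamethrin at these doses. It reports a compound effect over the dose levels for both genes. Over the 18 measured immediate early genes 8 were above 0 and 10 below, with a median of -0.01. None had an unadjusted p under 0.05, beside 0.760% of all genes. Fos entered this list by its second probe set, the brighter one. In the 18 late activity-regulated genes the median was 0.06 and 12 were above 0, with Inhba, a subunit of activin, highest at 0.32. Bdnf differed by 0.26 (-0.05 to 0.58) in a probe set with 7 of 8 deltamethrin rats above the permethrin mean, and by 0.03 in another. Hspb1, a small heat shock protein, differed by 0.07 (-0.26 to 0.40), and Rassf5, a Ras-binding adaptor, by -0.01 (-0.19 to 0.16).

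**Figure D2:**
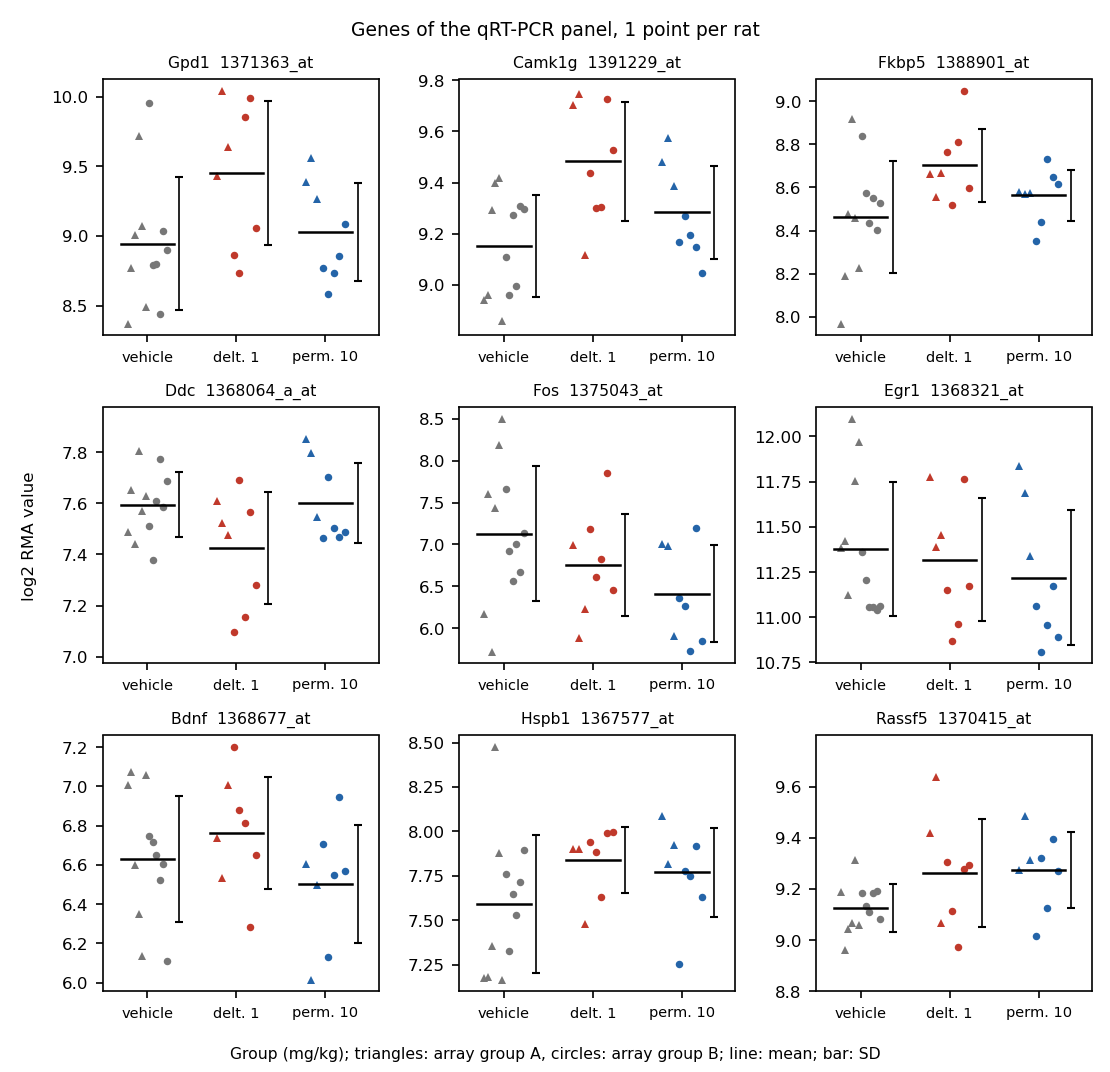
Log2 RMA values (y axis) of 9 panel genes in vehicle rats (n = 12), after deltamethrin 1 mg/kg and after permethrin 10 mg/kg (n = 8 each, x axis), with 1 point per rat, triangles for array group A, circles for array group B, lines at the means and bars of 1 SD. The compound groups overlap for each gene, and the means of Gpd1 and Camk1g are 0.42 and 0.20 higher after deltamethrin.

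The 36 gene lists, which hold 544 measured genes, contained 1 gene higher and 2 lower at an unadjusted p under 0.05, or 0.551%. Over all 14217 genes, each by its brightest probe set, the share was 0.760%. The gene that was higher after deltamethrin was Vdac1, the main channel of the outer mitochondrial membrane, among 24 genes of the respiratory chain and mitochondrial carriers. The lower ones were Cplx2, a complexin that binds the vesicle fusion machinery, among 25 genes of synaptic vesicle release, and Ddc, the lowest of the 13 genes that make or break down monoamines. The interval lay within ±1 for 537 of the 544 genes and within ±0.5 for 450. List medians ran from -0.06 for glutamate receptors to 0.09 for splicing and nuclear RNA, beside -0.01 over all genes. In the splicing list 17 of 20 genes were above 0, with Luc7l3 highest at 0.33, and none had an unadjusted p under 0.05. Ddx17, its member with the lowest p, differed by 0.57 in array group A and by -0.03 in B.

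Medians of the stress and metabolic lists were likewise close to 0. Heat shock proteins and chaperones (13 genes) had a median of 0.02, with Cryab, a small heat shock protein of glia, highest at 0.21 (-0.08 to 0.51). The 19 genes of endoplasmic reticulum stress also had a median of 0.02, with Hyou1 lowest at -0.33. Ddit3, the stress-induced factor CHOP, had the lowest p of that list at -0.11 (-0.26 to 0.03). The 22 glucocorticoid-responsive genes had a median of 0.03, and Gpd1 was the farthest from 0. In the list of cytochrome P450, esterase and conjugation genes, the families that break down pyrethroids, 16 of 21 genes were below 0 with a median of -0.02. Branching morphogenesis genes (28) had a median of 0.01 and Slit2, a guidance cue for growing axons and dendrites, had their lowest p at -0.13 (-0.26 to 0.0028).

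**Figure D3:**
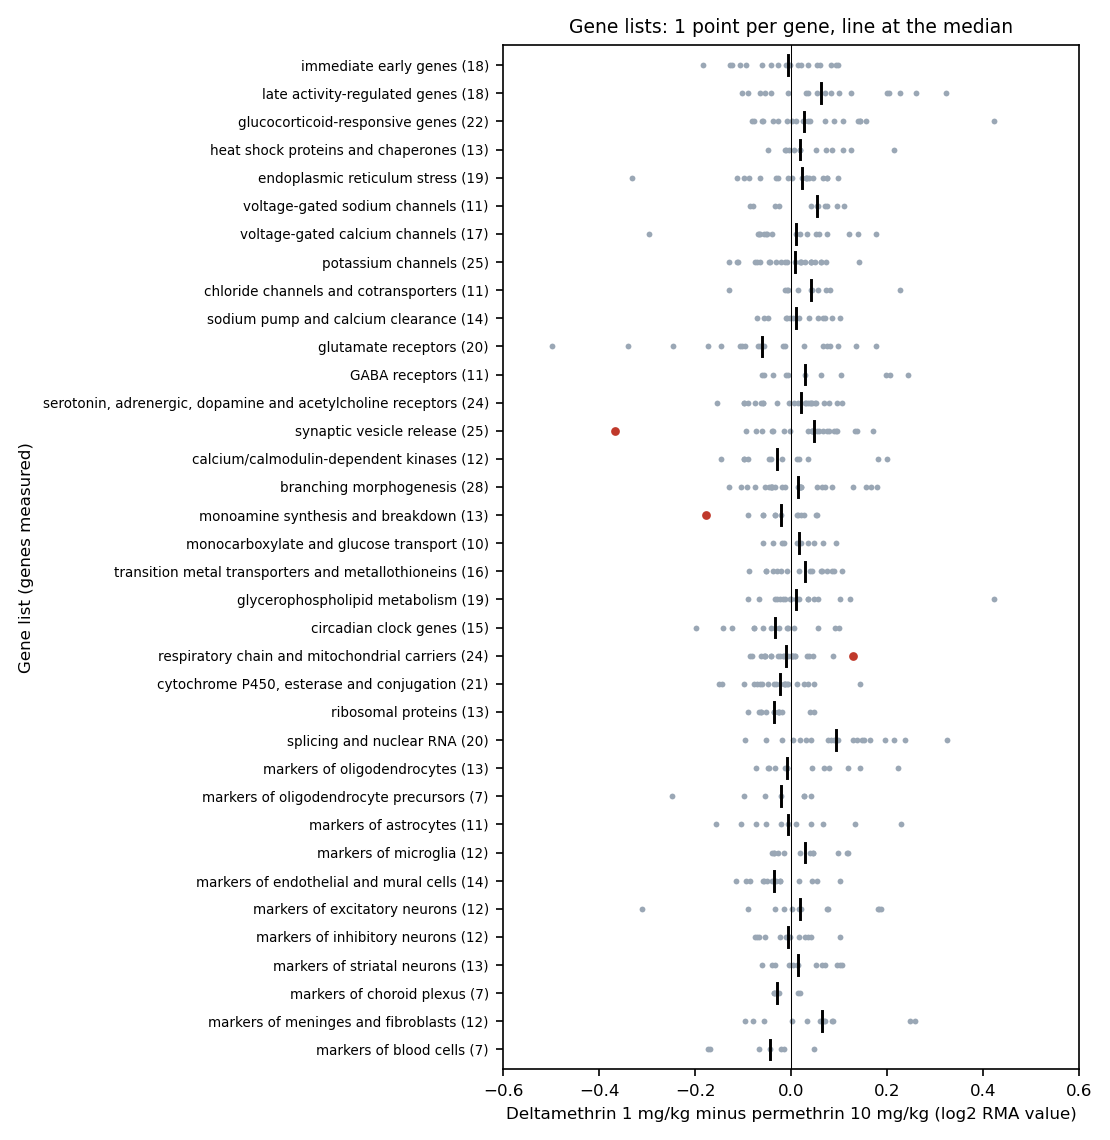
Difference between deltamethrin 1 mg/kg and permethrin 10 mg/kg (log2 RMA value, x axis) for each measured gene of 36 lists (y axis, number measured in parentheses), with a line at each median. The 3 larger points, Vdac1, Cplx2 and Ddc, are the genes with an unadjusted p under 0.05, and every median lies between -0.06 and 0.09.

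Marker genes of the cell types in the dissected tissue had list medians near 0 between the groups. Slc17a7, the vesicular glutamate transporter of cortical excitatory neurons, was at 12.4 after deltamethrin and 12.5 after permethrin, so the arrays carried the mark of the labelled tissue. Striatal marker genes were also present in both, with means over the 13 genes of 9.72 to 10.18 after deltamethrin and 9.79 to 10.32 after permethrin. None of the 11 marker lists had a gene with an unadjusted p under 0.05, beside 0.760% of all genes, and their medians lay between -0.04 and 0.06. Choroid plexus markers averaged 6.85 to 7.31 and 6.86 to 7.38 in the compound groups, and reached 8.87 in 1 vehicle rat. In the list for meninges and fibroblasts, with the highest median, Mgp differed by 0.25 (-0.02 to 0.51). Gfap, the filament protein of astrocytes, differed by 0.13 (-0.05 to 0.32), Npy of inhibitory neurons by 0.10 (-0.0043 to 0.21) and Tbr1 of deep-layer excitatory neurons by 0.19 (-0.06 to 0.44). These had the lowest p of their lists, and other members went the other way. Below 0 were 6 of 11 astrocyte genes (Slc1a2 lowest at -0.16) and 7 of 12 inhibitory neuron genes. In the excitatory list 4 of 12 were below 0, with Rorb lowest at -0.31.

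Genes with the lowest p were then taken from both directions, 10 each. All are descriptions of the top of a ranking in which no adjusted p was under 0.05. Unadjusted p values ran from 0.00029 to 0.0080, absolute differences from 0.13 to 0.57, and 17 of the 20 were under 0.25. Rnf150, a RING finger protein of the membrane-bound ubiquitin ligase type, came first among the named genes. It ran from 7.51 to 7.86 after deltamethrin (median 7.76), from 7.87 to 8.03 after permethrin (median 7.95) and from 7.52 to 8.04 in vehicle rats (median 7.84). This was the only probe set of the 31042 (0.00322%) in which the rats of the compounds did not overlap, and the highest deltamethrin rat lay just under the lowest permethrin rat. The difference was -0.22 ± 0.06 (SE, adjusted p = 1.00), with -0.20 in array group A and -0.23 in B, and the vehicle rats spanned both groups. The other probe set of Rnf150 differed by -0.10 ± 0.09.

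Kif5c, a kinesin motor of axons and dendrites, ran from 9.44 to 11.31 after deltamethrin (median 10.91) and from 10.80 to 11.68 after permethrin (median 11.38). All deltamethrin rats were below the permethrin mean, and the lowest, rat 7, stood apart from the remaining ones at 10.59 or more. The difference was -0.57 ± 0.19 (SE), a ratio of 0.68 (0.52 to 0.88), and -0.38 without that rat. The other probe sets of Kif5c differed by -0.13 and 0.07. Kif1a, which carries synaptic vesicle precursors, differed by -0.56 ± 0.25 in a probe set where all 8 rats of each compound were beyond the mean of the other. Of its other probe sets 1 differed by -0.50 and 1 by 0.02. Cplx2 ran from 9.76 to 10.85 after deltamethrin (median 10.48) and from 10.28 to 11.05 after permethrin (median 10.93), a difference of -0.37 ± 0.16 (SE, unadjusted p = 0.023). Raph1, an actin regulator of neurites, differed by -0.60 ± 0.26 in 1 of its 4 probe sets, with -0.08, 0.01 and -0.02 in the others. Probe sets of a gene thus disagreed for each of Kif5c, Kif1a and Raph1.

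Among the nuclear genes, Mllt10, a cofactor of histone methylation, lay between 6.89 and 7.43 after deltamethrin and between 7.26 and 7.73 after permethrin, a difference of -0.38 ± 0.12 (SE). Its 3 other probe sets differed by 0.01, 0.06 and 0.03. Taf3, a subunit of the general transcription factor TFIID, differed by -0.18, and by 0.05 and 0.10 in its other probe sets. Usf2, a helix-loop-helix factor, differed by 0.18 in a dim probe set and by -0.03 and -0.08 in brighter ones. Prrx1, a homeobox factor, differed by -0.16 and in another probe set by -0.01. Zfp536, a zinc finger protein, differed by -0.20, and by 0.08, -0.11 and -0.05 elsewhere. Papolg, a poly(A) polymerase, ran from 6.22 to 6.67 after deltamethrin (median 6.29) and from 5.85 to 6.28 after permethrin (median 6.15). All 8 rats of each compound lay beyond the mean of the other, with a difference of 0.23 ± 0.07 (SE). Its 3 other probe sets differed by 0.06, 0.18 and 0.20, all higher after deltamethrin.

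Vdac1 was the brightest of the 20, between 12.09 and 12.25 after deltamethrin (median 12.18) and between 11.95 and 12.17 after permethrin (median 12.07). The difference of 0.13 ± 0.04 (SE) corresponds to a ratio of 1.09 (1.03 to 1.16). Zdhhc5, a palmitoyltransferase of synapses, ran from 8.68 to 8.93 and from 8.53 to 8.78, a difference of 0.18 ± 0.06 (SE), and its second bright probe set differed by 0.17. Slc40a1, the iron exporter ferroportin, differed by -0.23, in a comparison where 1 deltamethrin rat at 6.54 was far below the others, and by 0.03 and -0.05 in its other probe sets. The remaining genes higher after deltamethrin were Lrrn4 (0.17), Ptpn21 (0.19), Casp8 (0.17), Art5 (0.21) and Apol9a (0.36), and those lower were Sh3gl1 (-0.17), Rabl6 (-0.21) and Aunip (-0.13). Other probe sets of these genes differed by -0.02 for Casp8, by -0.01 and 0.01 for Lrrn4, by 0.00034 for Sh3gl1 and by 0.03 and -0.18 for Rabl6. Signs in array groups A and B were the same for 19 of the 20 genes, which choosing genes by p favours. Apol9a differed by -0.01 in A and by 0.59 in B, and Usf2 by 0.0026 and 0.29. Of the 20 genes 14 had a mean level below 7.17, the median over all probe sets. For all 20 the vehicle mean lay between the means of the compounds, as it did for 268 of the 318 probe sets with an unadjusted p under 0.05 (84.3%) and for 24.0% of all probe sets, and choosing probe sets by the size of a difference favours this arrangement.

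**Figure D4:**
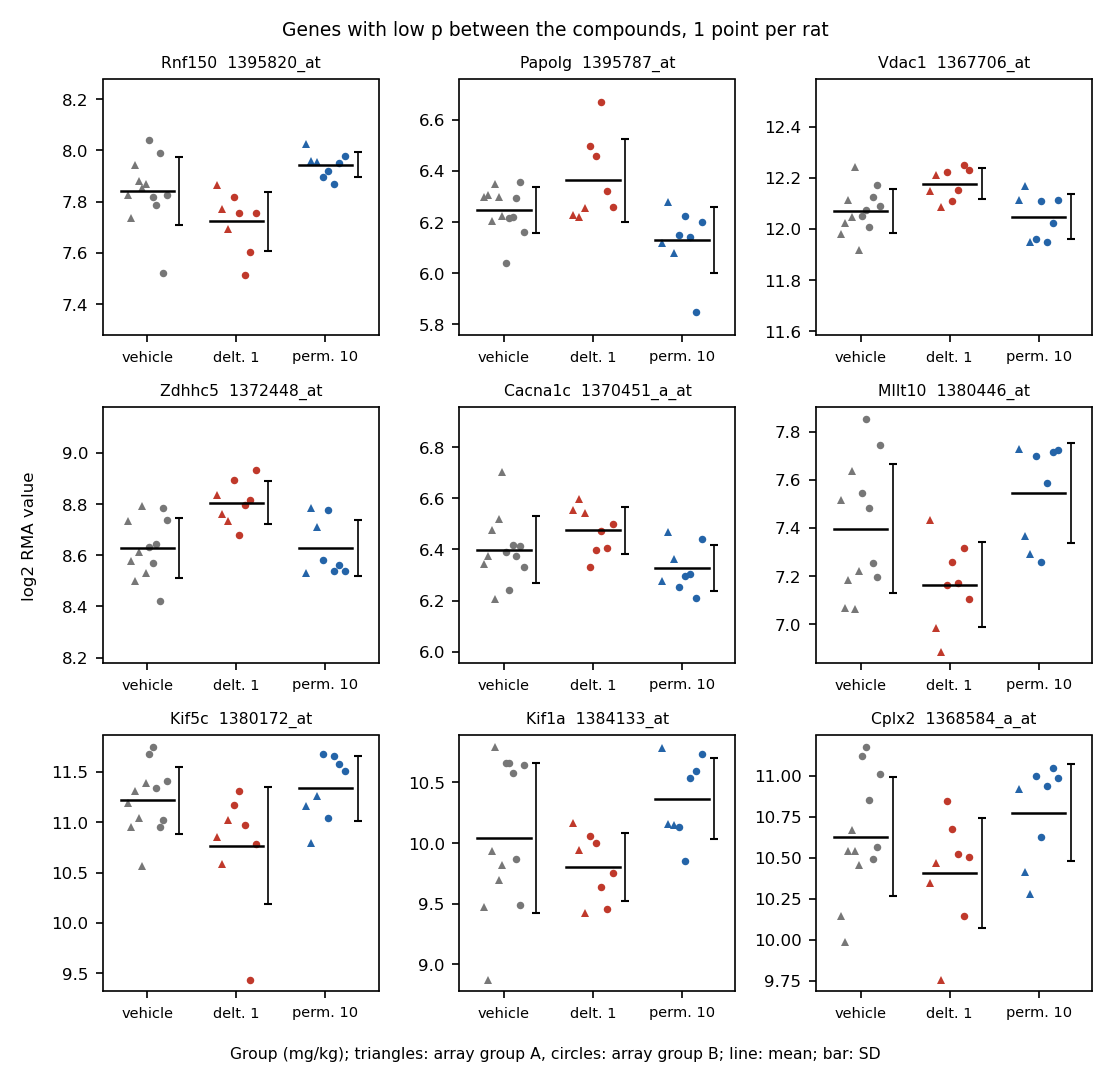
Log2 RMA values (y axis) in vehicle rats (n = 12), after deltamethrin 1 mg/kg and after permethrin 10 mg/kg (n = 8 each, x axis) for 9 genes with low unadjusted p, with 1 point per rat, triangles for array group A, circles for array group B, lines at the means and bars of 1 SD. Rnf150 is the only gene whose compound groups do not overlap, its vehicle rats span both, and Kif5c has 1 low deltamethrin rat at 9.44.

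Size and p did not rank the genes alike. The 5 named probe sets with the largest differences higher after deltamethrin (Prp2l1, Rock2, Gpd1, Ptpn4 and Ap3s1, from 0.40 to 0.52) had unadjusted p values from 0.061 to 0.39 and SDs between rats of 0.35 to 1.65. For Ptpn4, a protein tyrosine phosphatase, the group A rats averaged 8.12 after deltamethrin and 7.27 after permethrin and the group B rats 9.44 and 9.30. The largest difference in the other direction among named probe sets was that of Jund, another AP-1 subunit, at -0.68 (-1.59 to 0.22). Its probe set is of a kind that can share probes with other transcripts, and the brightest Jund probe set differed by -0.02. P3h4, a protein of the collagen-modifying machinery, differed by -0.51 ± 0.20 (SE). Its other probe sets differed by -0.35, -0.28, -0.25 and, for the brightest, 0.01.

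The compounds were also compared at the other dose pairs, on other rats. The highest doses are not matched by behavioural level. The paper's dose table gives 100 mg/kg permethrin a stronger effect level than 3 mg/kg deltamethrin, so compound and behavioural level differ together in that pair. Between the highest doses (3 mg/kg for deltamethrin, 100 mg/kg for permethrin) 0 probe sets had an adjusted p under 0.05 and 249 (0.802%) an unadjusted one, and between the lowest doses (0.3 and 1 mg/kg) these counts were 0 and 747 (2.41%). The difference at the threshold doses differed from that at the highest doses for 0 probe sets by adjusted p and for 108 (0.348%) by unadjusted p, and from that at the lowest doses for 0 and 346 (1.11%) (limma interaction contrasts). Of the 318 probe sets with an unadjusted p under 0.05 at the threshold doses, 235 (73.9%) had the same sign at the highest doses, beside 60.7% of all probe sets, and 182 (57.2%) at the lowest doses, beside 60.2%. Of the 318, 10 also had an unadjusted p under 0.05 with the same sign at the highest doses and 5 at the lowest. Mean scores on the first principal component were lower after deltamethrin in all 3 pairs. The differences in mean were -5.15, -5.48 and -13.4 from the threshold to the highest and lowest doses. At the threshold doses the median score was higher after deltamethrin (-9.63 against -12.1). The part of these scores in the shares above was not tested.

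Of the 20 genes with the lowest p, 16 kept their sign at the highest doses and 13 at the lowest. Since these genes were chosen by p at the threshold doses, smaller differences at the other pairs are favoured by that choice. At the highest doses their differences ran from -0.17 to 0.20, and 1 had an unadjusted p under 0.05, Rabl6 at -0.17. At the lowest doses 2 did, Vdac1 at 0.13 and Slc40a1 at -0.16. Rnf150 differed by -0.05 at the highest doses and by 0.03 at the lowest. Vdac1 was higher after deltamethrin at each pair, by 0.13, 0.07 and 0.13 from the threshold to the highest and lowest doses. Among the panel genes, Gpd1 differed by 0.78 at the highest doses and by -0.21 at the lowest, and Fkbp5 by 0.38 and 0.13. Fos was 0.34 higher after deltamethrin at the threshold doses, 1.04 lower at the highest and 0.63 higher at the lowest, and the test of the threshold against the highest doses gave an unadjusted p of 0.0068 and an adjusted p of 1.00.

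**Figure D5:**
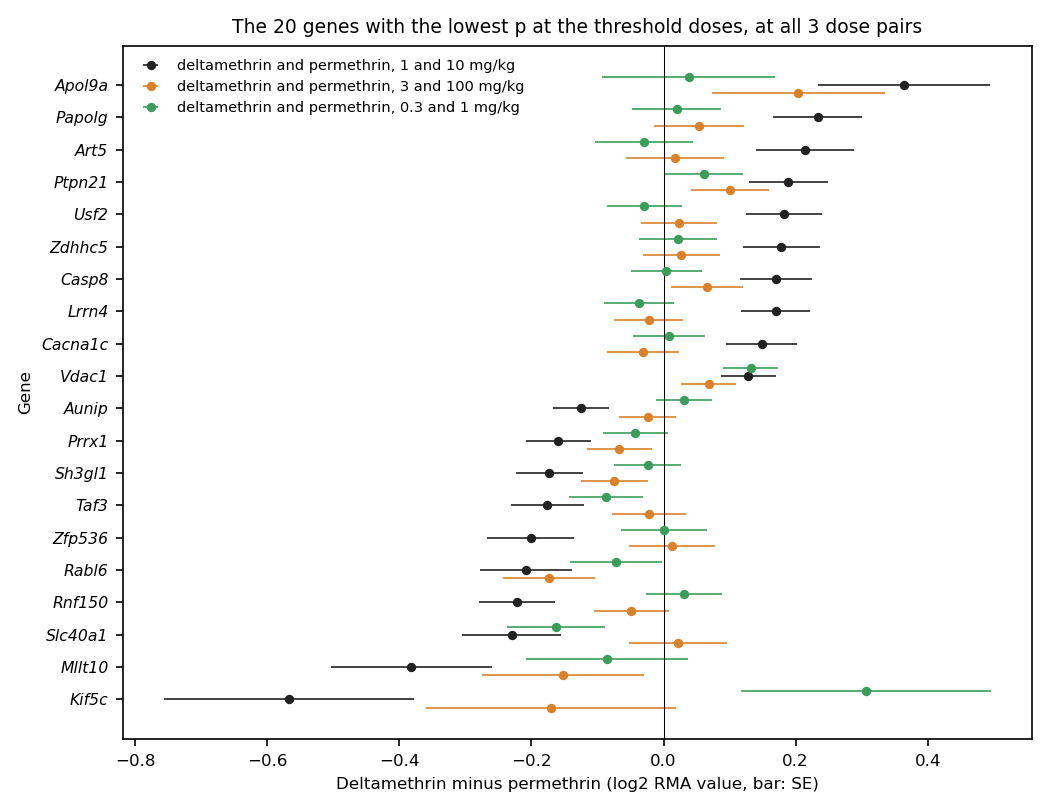
Difference between deltamethrin and permethrin (log2 RMA value, x axis, bars of 1 SE) at the threshold, highest and lowest dose pairs for the 20 genes with the lowest p at the threshold doses (y axis). Points of the other dose pairs lie nearer to 0 for most genes, which the choice of genes by p at the threshold doses favours. Vdac1 is above 0 at all 3 pairs.

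Against vehicle rats, deltamethrin at 1 mg/kg gave 0 probe sets with an adjusted p under 0.05 and 695 (2.24%) with an unadjusted one, 413 higher (1.33%) and 282 lower (0.908%). Permethrin at 10 mg/kg gave 0 and 1080 (3.48%), 733 higher (2.36%) and 347 lower (1.12%). The lowest adjusted p was 1.00 for deltamethrin and 0.96 for permethrin (limma). Spread between rats was alike in the groups, with a median SD over probe sets of 0.174 after deltamethrin, 0.177 after permethrin and 0.179 in vehicle rats.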

How the data were processed

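Frontal cortex RNA of 60 rats was hybridized to 1 Affymetrix Rat 230 2.0 array per rat. The authors deposited log2 values made with RMA in RMAExpress, per their methods, in 1 table of 31042 probe sets and 60 arrays without a column of another series. An array gives no read depth, so precision is set by how many arrays a group has. Groups came from sample titles, with 8 rats per dose and 12 vehicle rats.

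All 60 arrays entered 1 fit with a mean for each of 7 groups in limma 3.58.1 (R 4.3.3), moderated by empirical Bayes, and p-values of all probe sets were adjusted after Benjamini-Hochberg (threshold 0.05). Differences are means of log2 values, deltamethrin minus permethrin. This fit was tested on simulated data with known differences. Array groups A (24 arrays) and B (36 arrays) came from Ward clustering of the first principal components. Scores were compared by an exact permutation test (scipy 1.17.1).

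Symbols came from the platform annotation, with 20826 probe sets of 1 symbol, 436 of several and 9780 of none, and probe sets of several symbols were not named. A list entered each gene by its brightest probe set. The named genes were the 10 lowest p values in each direction, the lowest p of each list and any other list member at an unadjusted p under 0.05, the qRT-PCR genes with each probe set, the 5 largest differences in each direction, genes whose groups did not overlap, and sodium channel genes. Not all are named in the text, and genes named only as a list's highest or lowest value, as tissue check or as the other probe set of a named gene fall outside this rule. The comparison, lists and rule were chosen with earlier results of these data known. Alternatives changed the arrays in the fit, the normalization, the scale, the filter on dim probe sets, the variance prior, array weights and covariates. The qRT-PCR values were not analysed here.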

Additional observations from a re-analysis of the deposited data

Results flagged for a closer look

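Each group of 8 rats was searched for a rat far from the others in 63 probe sets of named genes, 126 groups in all, and 9 rats stood apart by a gap past Dixon's critical value. Chance alone gives about 1 such group in 20. In the deltamethrin group the low rats were rat 5 for Sh3gl1 (4.35, the others 4.57 to 4.69), rat 6 for Slc40a1 (6.54, the others 6.95 to 7.26), rat 7 for Kif5c (9.44, the others 10.59 to 11.31) and for Scn8a (7.02, the others 7.30 to 7.54), and rat 8 for the dimmer Bdnf probe set (6.55, the others 6.67 to 6.75). The high rats were rat 6 for Lrrn4 (5.32, the others 4.97 to 5.08) and rat 7 for Aunip (4.55, the others 4.37 to 4.46). In the permethrin group rat 7 was low for Papolg (5.85, the others 6.08 to 6.28) and rat 3 for the dimmer Ddc probe set (6.41, the others 6.72 to 6.96). No difference between dose pairs or array groups of a named gene had an adjusted p under 0.05 (limma).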

How the results depend on the processing

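The count of 0 adjusted calls between the compounds was the same under all 11 planned settings and in each of the 16 fits without 1 rat (limma), and the counts at an unadjusted p under 0.05 were not. From 123 higher and 195 lower (1.02%) they became 34 and 65 among the 15521 probe sets at or above the median level (0.638%). Array quality weights gave 606 and 1478 (lowest adjusted p 0.079), with the lowest weights on rats 1 and 2 of each compound. Their share of 6.71% was above the fraction of 0.05 that is given on average when no probe set differs. With the first principal component as a covariate there were 386 and 474 (2.77%), and 521 and 659 (3.80%) with this covariate and the array groups. With the array groups alone there were 176 and 338 (1.66%). Correlations between the deviations of same-numbered rats were -0.44 for rat 7 and 0.36 to 0.83 for the others. Only rats 2, 3 and 8 matched their own number best, so pairing by number was not shown. The fit with the replicate number as a block (336 and 628, 3.11%, 0 adjusted) is therefore given here alone. Its median SE was 0.067, beside 0.087 for the same 16 arrays without the block. Without 1 rat the counts ran from 70 (without deltamethrin rat 6) to 230 (without permethrin rat 2) higher and from 149 to 348 (without deltamethrin rat 1) lower, and they also moved by over 1.5 times without permethrin rat 6 (81 higher) and deltamethrin rat 7 (321 lower). The share in either direction ran from 0.731% to 1.49% in these fits. With the first principal component as a covariate, 1 probe set had an adjusted p under 0.05 between deltamethrin and vehicle. The cause of these changes was not tested.

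Of the 63 probe sets of named genes 55 kept their sign in each setting that tested them and each fit without 1 rat. The 36 list medians were recomputed under 5 settings only (the 16 arrays alone, both normalizations, array groups, covariate) and stayed within the spread between rats. The sign turned for 8 with differences near 0. Scn2a became -0.0103 with array weights, -0.0411 with the covariate and -0.0484 with covariate and array groups, and Scn3a -0.0112, -0.0152 and -0.0117. The flat Fos probe set became 0.0192 and 0.0188 with the covariate and with both, and Rassf5 0.000611 with both. Without 1 rat Scn2a ran from -0.156 to 0.222, Scn3a from -0.118 to 0.180, Scn1a from -0.0930 to 0.268, Fgf12 from -0.159 to 0.350, the flat Fos probe set from -0.0460 to 0.0377, the dimmer Ddc probe set from -0.0774 to 0.0206, Rassf5 from -0.0672 to 0.0277 and Hspb1 from -0.00180 to 0.123.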
